A study of Mus musculus with 4 samples.

Results

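AP-1 is a family of dimeric transcription factors that couple signals from the T cell receptor, cytokines and cellular stress to gene transcription. In mouse small-intestinal CD4+ T cells, 8 of its genes were followed among the 13265 genes of the deposited table: Fos, Fosb and Fosl2 of the Fos family, Jun, Junb and Jund of the Jun family, and Batf and Atf3, which code for related leucine zipper factors. They were chosen by name, as AP-1 genes and with earlier results of these data known, and all 8 were in the table. Their summed transcripts made up 1.96% of the corrected UMIs (unique molecular identifiers, 1 per captured transcript molecule) of Pre-tumorigenic TGFβR-KO cells, 1.24% of those of Tumorigenic cells and 0.324% of those of Activated cells. Fos, Fosb, Jun, Junb and Jund were higher in Pre-tumorigenic than in Activated cells whatever the state of the TGFβ receptor, whereas Batf was not, and within TGFβR-KO Fosl2 was highest in the Tumorigenic cells.

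The study asked where tumour-forming cells that descend from intestinal Th17 cells come from once TGFβ signalling is lost. YFP+CD4+ T cells were sorted from the small intestine of mice 7 to 8 months old and profiled by 10x Genomics 3′ single-cell RNA sequencing. All mice carried the Il-17a-CRE allele and a Rosa26 reporter in which Cre removes a floxed stop before YFP, so YFP marks cells that have expressed Il17a at some time, not only those that still do. TGFβR-KO mice (labelled RKO, 1 sample) also had floxed alleles of TgfbR2, TGFβR-CA mice (labelled RCA, 1 sample) a constitutively active TgfbR1 behind a floxed stop cassette, and TGFβR-WT mice (labelled WT, 2 samples) neither. Cre was thus driven by Il17a in every group, so receptor changes were limited to cells with a history of Il17a expression, and each sample was a pool of mice.

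Fos proteins bind DNA as partners of Jun proteins, while Jun proteins also pair with each other. Fos, Fosb, Jun, Junb and Atf3 are immediate early genes: their transcripts appear within minutes of antigen receptor, MAP kinase or stress signals and are short-lived. JunD is present more steadily, and BATF, which lacks a transactivation domain of the Fos kind, pairs with Jun proteins and with IRF4 at composite sites and is required for Th17 and follicular helper T cell differentiation. FOSL2 has been described as a restraint on Th17 plasticity, and ATF3 as a stress-induced factor. AP-1 dimers recognise the site TGANTCA, and dimers with ATF or CREB proteins prefer the CRE, an 8-base site with the core TGACGT.

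Because transcription of several of these genes is itself known to run through such elements, the 250 bases before the RefSeq start of 5 of them are given here, 5′ to 3′ on the gene's strand, from RefSeq's GRCm38.p6 annotation. Fos lies at chr12:85473640-85473889 (plus strand), Jun at chr4:95052223-95052472 (minus strand), Junb at chr8:84978749-84978998 (minus strand), Atf3 at chr1:191183334-191183583 (minus strand) and Batf at chr12:85686470-85686719 (plus strand). Fos, Jun, Atf3 and Batf are shown because they hold a match, and Junb because it had the highest Pre-tumorigenic level in TGFβR-KO cells and holds none. Capitals mark a match on either strand to TGACGT, to TGACNTCA, which is the CRE with any base at the fifth position and takes in some of the TGACGT matches, or to TGANTCA.
Fos: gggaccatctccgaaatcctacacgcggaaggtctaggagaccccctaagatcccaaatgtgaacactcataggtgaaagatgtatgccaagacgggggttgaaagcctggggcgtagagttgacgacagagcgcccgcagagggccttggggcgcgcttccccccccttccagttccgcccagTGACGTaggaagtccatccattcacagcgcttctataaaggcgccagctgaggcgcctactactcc
Jun: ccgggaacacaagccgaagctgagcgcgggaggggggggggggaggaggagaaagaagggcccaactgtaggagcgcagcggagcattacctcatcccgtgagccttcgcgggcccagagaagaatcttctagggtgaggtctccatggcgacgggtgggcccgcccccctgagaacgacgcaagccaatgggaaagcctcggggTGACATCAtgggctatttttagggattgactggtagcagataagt
Junb: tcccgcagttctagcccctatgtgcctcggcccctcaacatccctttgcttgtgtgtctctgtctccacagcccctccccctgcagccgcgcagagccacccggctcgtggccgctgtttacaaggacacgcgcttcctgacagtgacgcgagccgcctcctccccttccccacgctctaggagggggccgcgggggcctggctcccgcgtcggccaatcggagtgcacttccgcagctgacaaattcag
Atf3: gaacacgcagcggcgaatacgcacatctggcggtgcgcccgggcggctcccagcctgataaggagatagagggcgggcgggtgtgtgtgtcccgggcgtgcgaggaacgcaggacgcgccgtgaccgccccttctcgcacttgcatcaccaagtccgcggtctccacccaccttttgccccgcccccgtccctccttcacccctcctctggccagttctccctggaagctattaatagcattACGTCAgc
Batf: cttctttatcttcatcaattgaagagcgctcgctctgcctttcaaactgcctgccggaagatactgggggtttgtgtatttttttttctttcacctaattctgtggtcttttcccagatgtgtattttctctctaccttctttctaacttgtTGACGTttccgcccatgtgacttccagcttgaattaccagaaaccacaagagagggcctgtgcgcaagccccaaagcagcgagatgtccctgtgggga
The match in Fos began 66 bases before the start, that in Batf 98 bases before it and that in Atf3, on the opposite strand, 8 bases before it. Jun held TGACATCA from 45 bases before its start. Of the 32536 promoter windows of the same length, 6.50% held TGACGT, 7.43% TGACNTCA and 6.73% TGANTCA. A match describes the letters only, and no binding was measured in the table used here.

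The table held 5080 cells: 2975 from TGFβR-KO, 1098 from TGFβR-CA and 1007 from TGFβR-WT mice, the last in sets of 709 and 298 cells told apart by the suffix of the cell names. These sets are called the larger and the smaller TGFβR-WT set, since no label tied them to the individual samples. Median corrected UMIs per cell ranged from 3440 to 3984.5 among the 4 sets. The cells came with the authors' names for 8 clusters, and Pre-tumorigenic cells numbered 230 in TGFβR-KO, 27 and 52 in the larger and smaller TGFβR-WT sets and 83 in TGFβR-CA. Tumorigenic cells numbered 361 in TGFβR-KO and 2, 3 and 2 in the other sets, too few to compare. Activated cells numbered 318, 88, 29 and 130 in the same order. The cells carried T cell genes at 61.2 to 129 summed UMIs per 10000 in the groups measured, γδ T cell genes at no more than 0.396, epithelial genes at no more than 0.845 and myeloid genes at no more than 0.124, and B cell genes reached 6.59 in GC-TFH cells and 6.04 in Pre-tumorigenic cells of the larger TGFβR-WT set. Activated cells of that set had 0.964, and B cell genes stood at 0.919, 0.892 and 0.815 in the Pre-tumorigenic cells of TGFβR-KO, the smaller TGFβR-WT set and TGFβR-CA. Their part in the AP-1 levels of the larger set's 27 Pre-tumorigenic cells was not tested. A 3′ assay need not read the deleted part of Tgfbr2, which stood at 1.48 UMIs per 10000 in TGFβR-KO cells and 1.72 to 1.78 in the other sets, nor need it read the TgfbR1 transgene, so these levels do not check the labels. Tgfbr1 stood at 2.79 in the smaller TGFβR-WT set and 0.367 in the larger, at 0.792 in TGFβR-CA and at 0.219 in TGFβR-KO. As it was highest in a set without the transgene, values are given for each TGFβR-WT set, and pooled TGFβR-WT is named where it is used. Cells with a barcode found in more than 1 set numbered 32, none of them Pre-tumorigenic or Tumorigenic.

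Levels below are corrected UMIs of a gene per 10000 corrected UMIs of a group of cells. The assay counts 1 molecule per transcript end, so levels were not divided by gene length. The clusters had been drawn by the authors from the same cells and genes, Fos and Jun among the genes that describe the Pre-tumorigenic cluster, so differences between clusters are descriptions and carry no test. TGFβR-KO and TGFβR-CA had 1 sample each, so differences between genotypes have no replicate check. A gene is called higher or lower at a ratio of at least 1.5, and 95% intervals given with ratios and shares are exact and cover counting error alone.

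**Figure D1:**
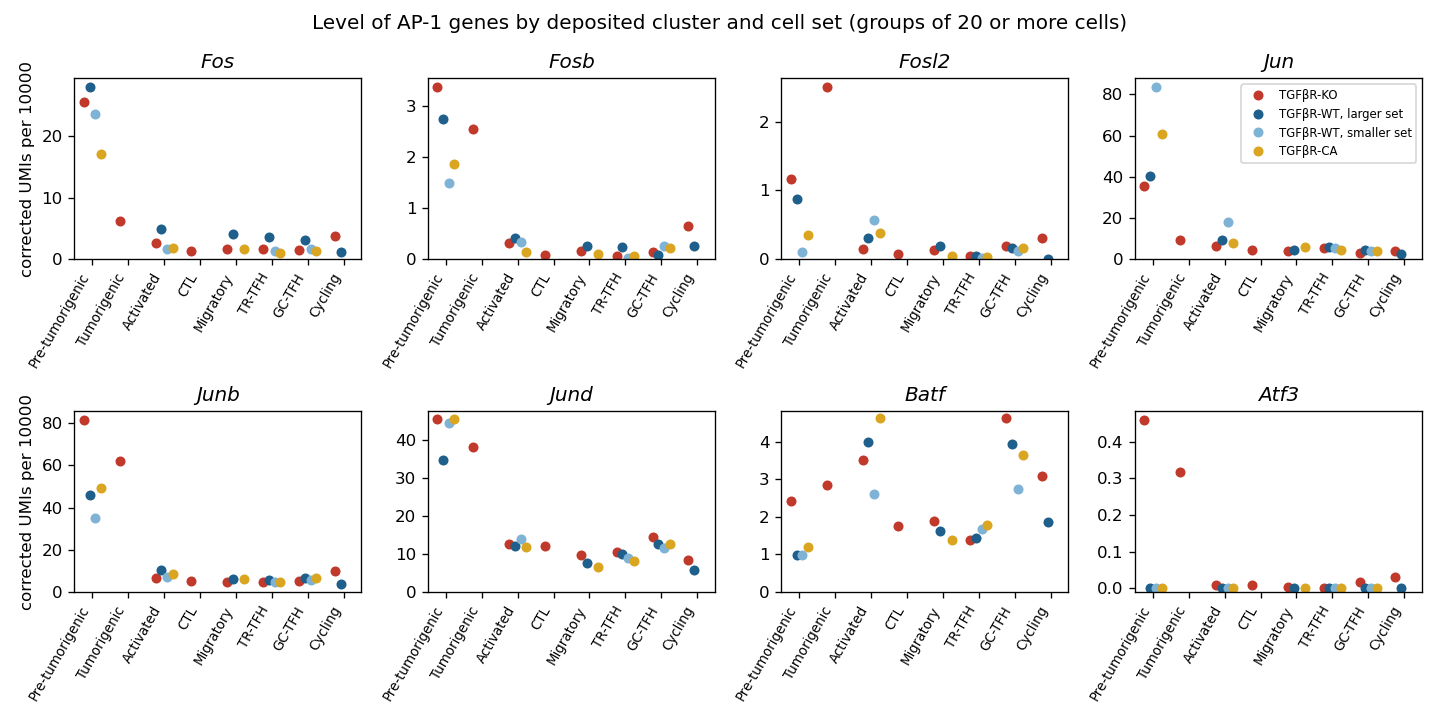
Level of each AP-1 gene (corrected UMIs per 10000, linear axes) in each deposited cluster with 20 or more cells, with 1 point per cell set and colours for genotype. Fos, Fosb, Jun, Junb and Jund peak in Pre-tumorigenic cells of every set, Fosl2 peaks in Tumorigenic TGFβR-KO cells at 2.51, and Batf is low in Pre-tumorigenic cells of the TGFβR-WT and TGFβR-CA sets.

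Fos, the immediate early partner of Jun, stood at 25.6 UMIs per 10000 in Pre-tumorigenic TGFβR-KO cells, 28.1 and 23.6 in the larger and smaller TGFβR-WT sets, and 17.2 in TGFβR-CA. In Activated cells it stood at 2.69, 4.85, 1.63 and 1.78 in the same order. The lowest Pre-tumorigenic value was thus above the highest Activated one. The ratio of Pre-tumorigenic to Activated was 9.54 in TGFβR-KO (95% interval 8.49 to 10.7), 5.79 and 14.5 in the larger and smaller TGFβR-WT sets and 9.65 in TGFβR-CA, so that the TGFβR-WT sets lay on both sides of the other genotypes. Tumorigenic TGFβR-KO cells held 6.28, so Fos was 4.08 times higher in Pre-tumorigenic cells than in them (3.78 to 4.42). Fos was seen in 85.7% of Pre-tumorigenic TGFβR-KO cells (80.4 to 89.9), 55.4% of Tumorigenic cells (50.1 to 60.6) and 42.1% of Activated cells (36.6 to 47.8). The median cell held 5, 1 and 0 Fos UMIs, and single Pre-tumorigenic cells reached 84, so the level was carried unevenly.

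Fosb, which codes for a second immediate early Fos protein, was much scarcer than Fos. Its Pre-tumorigenic level was 3.37 in TGFβR-KO, 2.74 and 1.49 in the TGFβR-WT sets and 1.85 in TGFβR-CA, against 0.319, 0.404, 0.325 and 0.131 in Activated cells. Again the groups did not overlap, and the ratio was 10.6 in TGFβR-KO (7.54 to 15.2), 6.79 and 4.57 in the TGFβR-WT sets and 14.1 in TGFβR-CA. Unlike Fos, Fosb differed little between Pre-tumorigenic and Tumorigenic TGFβR-KO cells, at 3.37 and 2.54 (ratio 1.32, 1.13 to 1.55), with 58.7% and 43.5% of cells positive against 9.43% of Activated cells.

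Fosl2 went the other way between the tumour-linked clusters. It stood at 1.16 in Pre-tumorigenic, 2.51 in Tumorigenic and 0.147 in Activated TGFβR-KO cells, so it was 2.16 times higher in Tumorigenic than in Pre-tumorigenic cells and 17.0 times higher than in Activated cells (10.6 to 29.1). Positive cells made up 25.7% of Pre-tumorigenic (20.1 to 31.8), 46.5% of Tumorigenic (41.3 to 51.8) and 5.35% of Activated cells. Outside TGFβR-KO, Fosl2 was scarce in Pre-tumorigenic cells: 8 UMIs over 27 cells and 2 UMIs over 52 cells in the TGFβR-WT sets, and 11 UMIs over 83 cells in TGFβR-CA. The corresponding levels were 0.878, 0.0991 and 0.345, against 0.311, 0.570 and 0.376 in Activated cells. The ratio of Pre-tumorigenic to Activated was thus 7.89 in TGFβR-KO (4.75 to 13.8), 0.892 in pooled TGFβR-WT (0.365 to 2.06) and 0.918 in TGFβR-CA (0.397 to 2.01). In TGFβR-WT the sets went in opposite directions, at 2.82 in the larger and 0.174 in the smaller.

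Jun, the founding AP-1 subunit, differed widely between cell sets. Pre-tumorigenic cells held 35.6 UMIs per 10000 in TGFβR-KO, 40.4 and 83.7 in the larger and smaller TGFβR-WT sets and 60.8 in TGFβR-CA. Activated cells held 6.27, 9.45, 18.0 and 8.0. Both clusters of the smaller TGFβR-WT set exceeded those of the larger, by 2.07 times in Pre-tumorigenic and 1.90 times in Activated cells, and TGFβR-CA lay between these sets in Pre-tumorigenic cells, so that TGFβR-CA was not separated from TGFβR-WT. Within each set Jun was higher in Pre-tumorigenic cells, by 5.68 times in TGFβR-KO (5.25 to 6.16), 4.27 and 4.66 in the larger and smaller TGFβR-WT sets and 7.60 in TGFβR-CA. In Tumorigenic TGFβR-KO cells it was 9.25, which put Pre-tumorigenic cells 3.85 times higher (3.61 to 4.11) and Tumorigenic cells 1.48 times above Activated ones, below the 1.5 that counts. Jun was seen in 93.0% of Pre-tumorigenic, 67.0% of Tumorigenic and 67.6% of Activated TGFβR-KO cells, and the median cell held 9, 2 and 2 UMIs.

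Junb, which codes for a partner of BATF in Th17 cells, was the most abundant member in both tumour-linked clusters of TGFβR-KO. It stood at 81.6 in Pre-tumorigenic, 62.2 in Tumorigenic and 6.74 in Activated cells, with medians of 27, 21 and 2 UMIs per cell. The first 2 values lay close together, at a ratio of 1.31 (1.27 to 1.35), and both lay far above the third, at ratios of 12.1 (11.3 to 13.0) and 9.22. In the other sets Pre-tumorigenic Junb was 46.0 and 35.3 in TGFβR-WT and 49.4 in TGFβR-CA, against 10.5, 7.16 and 8.53 in Activated cells. The resulting ratios of 4.39 and 4.93 in the TGFβR-WT sets and 5.79 in TGFβR-CA were smaller than that of TGFβR-KO, which had both the highest Pre-tumorigenic and the lowest Activated level of the 4 sets.

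Jund, the steadier Jun gene, ranged least among the Jun and Fos genes. Its Pre-tumorigenic level was 45.5 in TGFβR-KO, 34.6 and 44.4 in TGFβR-WT and 45.4 in TGFβR-CA, and its Activated level was 12.7, 12.1, 14.0 and 11.9. The ratio was 3.58 in TGFβR-KO, 2.87 and 3.17 in the TGFβR-WT sets and 3.80 in TGFβR-CA. Tumorigenic TGFβR-KO cells were close to Pre-tumorigenic ones, at 38.1 (ratio 1.19, 1.15 to 1.24), and more than 95% of cells of all 3 TGFβR-KO clusters were positive, the lowest share being 95.3% in Activated cells.

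Batf did not share the pattern. It was highest in GC-TFH cells (the germinal centre type of follicular helper cells) of TGFβR-KO and of the smaller TGFβR-WT set, at 4.62 and 2.73, and in Activated cells of the larger TGFβR-WT set and of TGFβR-CA, at 3.98 and 4.62. In both TGFβR-WT sets and in TGFβR-CA the Pre-tumorigenic level, 0.988, 0.991 and 1.19, was the lowest of the clusters measured. The ratio of Pre-tumorigenic to Activated was 0.248 and 0.380 in the larger and smaller TGFβR-WT sets (0.111 to 0.486 and 0.206 to 0.686) and 0.258 in TGFβR-CA (0.178 to 0.364). In TGFβR-KO it was 0.685 (0.578 to 0.809), from levels of 2.41 and 3.52, and did not pass the size rule. Tumorigenic cells held 2.85.

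Atf3 was seen in TGFβR-KO cells alone, with 91 UMIs in 47 cells. Of these UMIs, 40 were in 16 Pre-tumorigenic cells (6.96%, 4.03 to 11.1) and 45 in 26 Tumorigenic cells (7.20%, 4.76 to 10.4), and Activated cells had 1. The ratio of Pre-tumorigenic to Activated was 56.2, with a counting interval of 9.53 to 2275. None was counted in 27 and 52 Pre-tumorigenic cells of the TGFβR-WT sets, nor in 83 of TGFβR-CA. Taking a limit of 3 counts, this allows shares of cells with an Atf3 UMI of up to 11.1%, 5.77% and 3.61%, which says nothing of cells that express it without a UMI. Atf3 was the only member under the 200 UMIs asked of a gene for counts over all genes.

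**Figure D2:**
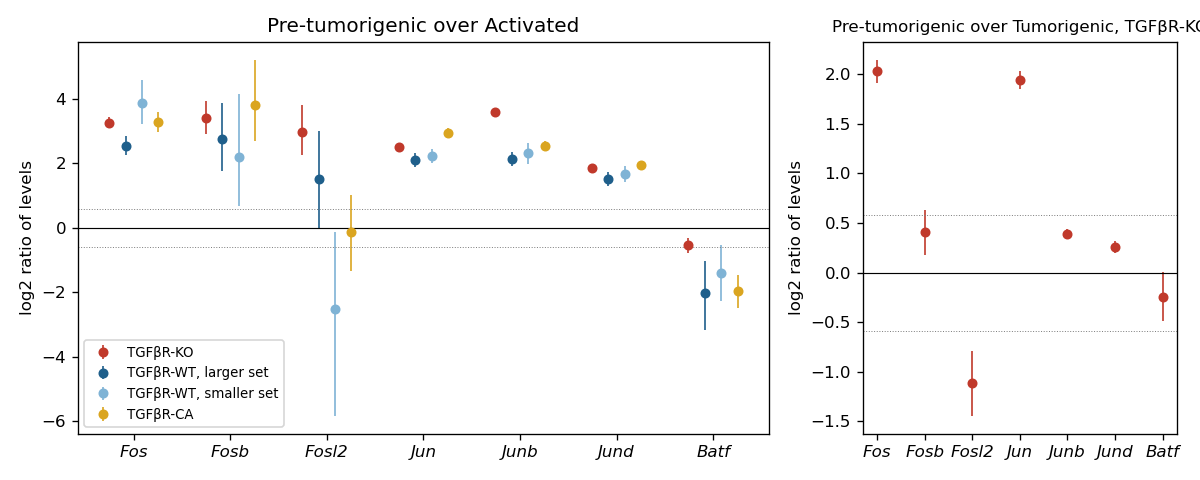
Log2 ratio of levels between clusters for the 7 AP-1 genes with at least 200 corrected UMIs, Pre-tumorigenic over Activated in each cell set on the left and Pre-tumorigenic over Tumorigenic in TGFβR-KO on the right. Bars are exact 95% counting intervals and dotted lines mark a ratio of 1.5 either way. Fos and Jun stand at 2.03 and 1.94 in the right panel and Fosl2 at -1.11.

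Outside the 3 clusters compared so far, Fos, Jun, Junb and Jund in TGFβR-KO lay below their Pre-tumorigenic and Tumorigenic levels. In the CTL (cytotoxic), Migratory, TR-TFH (tissue-resident follicular helper), GC-TFH and Cycling clusters of TGFβR-KO, Fos ranged from 1.25 to 3.75 UMIs per 10000, Jun from 2.83 to 5.38, Junb from 4.78 to 9.98 and Jund from 8.36 to 14.3. Fosb ranged more widely for its level, from 0.0570 in TR-TFH to 0.651 in Cycling cells, and Fosl2 from 0.0467 to 0.310 in the same clusters. Cycling cells had the highest Fos and Junb of the 5 and the lowest Jund, while GC-TFH cells had the highest Jund and the lowest Jun. Even there Jund was seen in 76.6% to 95.9% of cells and Junb in 54.5% to 72.0%, but Fosb in 2.12% to 10.4% and Fosl2 in 1.73% to 11.7%. Detection of Fosb and Fosl2 thus set Pre-tumorigenic and Tumorigenic cells apart from the other clusters more than detection of Jund did. No cell type in the table is known to lack these genes, so free RNA could not be gauged from them. Among the sets, Fos in the larger TGFβR-WT set was 3.15 in GC-TFH and 3.67 in TR-TFH cells, against 1.57 and 1.36 in the smaller set, 1.42 and 1.57 in TGFβR-KO and 1.30 and 0.938 in TGFβR-CA, whereas in Cycling cells it was 1.13 in the larger set against 3.75 in TGFβR-KO.

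By count, 7 of the 8 members were higher in Pre-tumorigenic than in Activated TGFβR-KO cells, or 6 of the 7 with at least 200 UMIs, where 6.25% of the 7490 genes with at least 200 UMIs were. In pooled TGFβR-WT 5 of 8 were higher, where 11.7% of genes were (6 in the larger set alone, which adds Fosl2, and 5 in the smaller), and in TGFβR-CA 5 of 8, where 10.1% were. The 5 genes Fos, Fosb, Jun, Junb and Jund were higher in each of the 4 sets, as were 0.641% of all genes. Tumorigenic exceeded Activated TGFβR-KO cells for 6 of 8 members, or 5 of the 7 with at least 200 UMIs, where 7.70% of genes did. The median ratio of Pre-tumorigenic to Activated over the 7 members with 200 UMIs was 7.89 in TGFβR-KO, where over all genes it was 0.803, 4.04 against 0.834 in pooled TGFβR-WT and 5.79 against 0.835 in TGFβR-CA. Ranked by this ratio among 7490 genes in TGFβR-KO, Junb was in place 17, Fosb 24, Fos 30, Fosl2 38, Jun 61 and Jund 104, and Batf was in place 5098.

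Between Pre-tumorigenic and Tumorigenic TGFβR-KO cells the members split. Fos and Jun, 2 of 8, were higher in Pre-tumorigenic cells, where 13.4% of genes were, and Fosl2 alone was lower, where 11.0% of genes were. Fos was in place 28 and Jun in place 39 from the top of the 7490 genes, while Fosl2 was in place 7299. The other 5 differed by less than 1.5 times, and the counts of 2 and 1 among 8 are not far from the background.

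The make-up of the AP-1 pool differed between clusters, as did its size. Junb supplied 41.7% of the members' UMIs in Pre-tumorigenic, 50.1% in Tumorigenic and 20.8% in Activated TGFβR-KO cells. The ratio of Junb to Jun UMIs was 2.29 in Pre-tumorigenic and 6.72 in Tumorigenic cells, and 1.08 in Activated ones. It was lower in Pre-tumorigenic cells of the other sets: 1.14 and 0.421 in the larger and smaller TGFβR-WT sets and 0.813 in TGFβR-CA. Within the Fos family, there were 22.1 Fos UMIs for each Fosl2 UMI in Pre-tumorigenic TGFβR-KO cells and 2.51 in Tumorigenic cells, with 18.3 in Activated cells. Tumorigenic cells thus had Junb and Jund near the levels of Pre-tumorigenic cells, with fewer Fos and Jun and more Fosl2 transcripts.

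**Figure D3:**
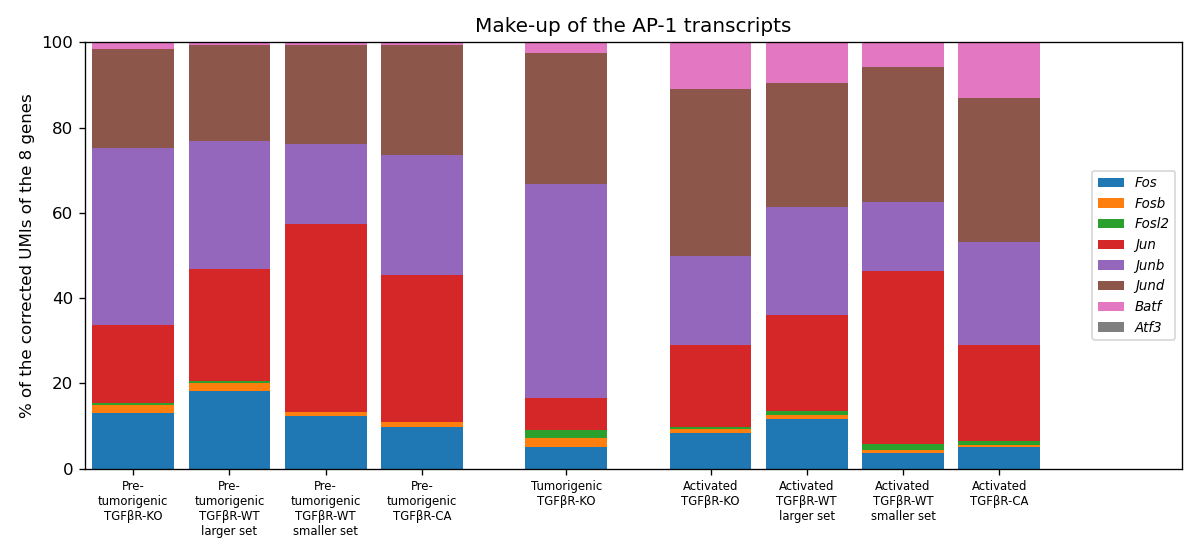
Share of the corrected UMIs of the 8 AP-1 genes that each gene supplied (percent, stacked to 100), for Pre-tumorigenic, Tumorigenic and Activated cells of each cell set. Junb supplied 50.1% in Tumorigenic TGFβR-KO cells, and Jun 44.2% in Pre-tumorigenic cells of the smaller TGFβR-WT set.

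Single cells carried several members at once. The median was 5 of 8 AP-1 genes per Pre-tumorigenic and per Tumorigenic TGFβR-KO cell, 4 per Activated cell and 3 in each other TGFβR-KO cluster. At least 5 genes were seen in 71.7% of Pre-tumorigenic, 57.9% of Tumorigenic and 24.2% of Activated TGFβR-KO cells. In Pre-tumorigenic cells of the other sets the share was 40.7% and 48.1% in TGFβR-WT and 57.8% in TGFβR-CA, where Atf3 was not counted at all. Fos and Jun were seen together in 80.0% of Pre-tumorigenic TGFβR-KO cells (74.2 to 85.0), near the 79.7% that their separate shares multiply to, and in 41.6% of Tumorigenic cells, where the product was 37.1%. Fosl2 and Fosb were seen together in 16.5% of Pre-tumorigenic and 25.8% of Tumorigenic cells, with products of 15.1% and 20.2%. Most of the joint detection was thus what the single shares give. Median UMIs per cell were 3647.5, 3940 and 3743 in the 3 clusters and median detected genes 1305.5, 1430 and 1591, so the cluster with most AP-1 transcripts had the fewest detected genes.

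**Figure D4:**
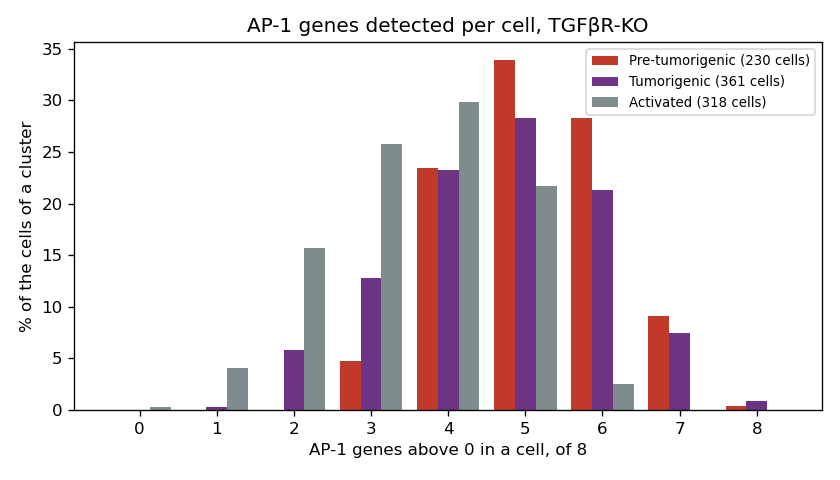
Percent of cells (vertical axis) by the number of the 8 AP-1 genes above 0 in a cell (horizontal axis), for 230 Pre-tumorigenic, 361 Tumorigenic and 318 Activated TGFβR-KO cells. Cells with 5 or more make up 71.7%, 57.9% and 24.2%.

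Set against both TGFβR-WT sets, Pre-tumorigenic TGFβR-KO cells differed by at least 1.5 times in the same direction for 2 of 8 members, where 20.4% of all genes did, so that the count is near the background. Junb was 1.77 and 2.31 times higher than in the larger and smaller TGFβR-WT sets, and Batf 2.44 and 2.43 times. Fos, in contrast, differed from them by ratios of 0.913 and 1.09. Jun was 0.882 of the larger set's level and 0.425 of the smaller's. In Activated cells the members apart were Fosl2, at 0.473 and 0.258 of the levels in TGFβR-WT, and Jun, at 0.663 and 0.349, which is 2 of 8, where 13.4% of genes were. No member was apart from both TGFβR-WT sets in Pre-tumorigenic TGFβR-CA cells, where 15.3% of genes were. In Activated TGFβR-CA cells Fosb was, at 0.325 and 0.404 of the TGFβR-WT levels and on 7 UMIs, as were 12.3% of genes. Between the larger and smaller TGFβR-WT sets, Fosb, Fosl2 and Jun in Pre-tumorigenic cells were at least 1.5 times apart. In Activated cells Fos, Fosl2, Jun and Batf were, at 0.335, 1.83, 1.90 and 0.654 of the larger set's level in the smaller. Fosl2 and Jun, apart in Activated TGFβR-KO cells, thus also differed between the TGFβR-WT sets. The share of all genes apart between these sets was not counted. By the study's methods TGFβR-KO cells shared a batch with TGFβR-WT cells, and TGFβR-CA cells shared another with TGFβR-WT cells. Which TGFβR-WT set went with which was not given, so 1 of the 2 values against TGFβR-WT is within a batch, and the labels do not say which. Of the 16 barcodes found in more than 1 set, 14 were common to larger-set TGFβR-WT cells and TGFβR-KO cells. Another 1 was common to both TGFβR-WT sets, and 1 to TGFβR-CA and TGFβR-KO. Whether this split follows the batches was not tested.

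Across the 21 groups of at least 30 cells, formed by cluster and set, the members' own levels ran together or apart. These groups share libraries and clusters built on the same genes, so Pearson's r on log2 levels plus 0.5 is a description. Fosb and Junb were the closest pair, with r of 0.967, followed by Junb and Jund with 0.924 and Fos and Jun with 0.904. Fosl2 was nearest Atf3 among the members, with 0.860, and far from Jun, with 0.353. Batf gave values between -0.369 with Jun and 0.302 with Fosl2. Over all genes, the 3 most like Fos were Dusp1 (a MAP kinase phosphatase, 0.958), Zfp36 (an mRNA-decay factor, 0.923) and Klf6 (a Krüppel-like factor, 0.921). The 3 most like Jun were Rhob (0.964), Dusp1 (0.918) and Klf6 (0.916), and the most like Fosb, after Junb, were Tnfaip3 (0.948), an inhibitor of NF-κB signalling, and the chaperone Hspa1a (0.940). Junb was also close to Dusp1 and Tnfaip3, both at 0.954, and Jund to Dusp1 at 0.931 and to the histone gene H3f3b at 0.916. Fosl2 was nearest Dusp5 (0.955), Ifrd1 (0.946) and Gem (0.927), and Atf3 nearest Csf2 (0.968), which codes for GM-CSF, Coq10b (0.942) and Nr4a2 (0.917). Every r with Atf3, that with Fosl2 included, rests mainly on the Pre-tumorigenic and Tumorigenic TGFβR-KO groups. They held 40 and 45 of its 91 UMIs, and it was not counted outside TGFβR-KO. Such values of r therefore say little beyond being high in those groups. For Batf the values were lower: Rilpl2 at 0.880, the costimulatory receptor Tnfrsf4 at 0.859 and Gnaq at 0.849.

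Genes of the wider pathway were read over genes with at least 200 UMIs and for Pre-tumorigenic over Activated TGFβR-KO cells, where 6.25% of all genes were higher and 29.3% lower, with a median ratio of 0.803. Of 21 other leucine zipper genes, 5 were higher and 3 lower, with a median ratio of 0.846. Those higher were Nfil3 (7.27), Atf4 (4.08) and Ddit3 (2.08) of the stress response, Cebpb (3.0) and Mafk (2.69), while Atf2, Bach1 and Bach2 were lower. Of 18 genes of the MAP kinases and SRF that feed into Fos and Jun, 1 was higher, Map3k8 at 5.67, and 10 were lower, with a median of 0.665. Of 12 genes for factors that work beside AP-1 in T cells, none was higher and Nfatc3 was lower. Irf4, whose product binds with BATF, stood at 0.884 and 0.735 UMIs per 10000 in the 2 clusters. The shares of higher genes among the inputs and partners were near that of all genes.

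Other immediate early and heat shock genes were higher in the same cells as the AP-1 genes. In TGFβR-KO 20 of 25 other immediate early genes were higher than in Activated cells, with a median ratio of 5.17, where 6.25% of all genes were. Among them were Nr4a1 (59.4), Tnfaip3 (27.8), Dusp1 (14.2), Klf6 (13.5) and Cd69 (11.3). Egr2 (0.579) and Egr3 (0.535) were lower, and Egr1 (1.23) was neither. Of 15 heat shock genes 14 were higher, with a median ratio of 4.06, led by Hspa1a (68.4), Hspa1b (36.0) and Dnajb1 (27.7). In pooled TGFβR-WT 16 of the 25 and 11 of the 15 were higher, with medians of 1.76 and 2.77, where 11.7% of genes were. In TGFβR-CA 13 and 8 were, with medians of 1.72 and 1.62, where 10.1% of genes were. The Nr4a1 ratio was 30.9 for larger-set TGFβR-WT cells and 0.759 for TGFβR-CA. Activated cells of the smaller set held no Nr4a1 UMI, so their Pre-tumorigenic level of 0.248 was set against the floor of 3 counts. The 1.01 that this gives is a lower bound and not a measured ratio. Between Pre-tumorigenic and Tumorigenic TGFβR-KO cells 11 of the 15 heat shock genes and 11 of the 25 immediate early genes were higher, and 0 and 3 lower, where 13.4% of all genes were higher and 11.0% lower. The 3 lower were Nr4a3 (0.454), Dusp5 (0.378) and Klf2 (0.599). Summed heat shock levels were 343 UMIs per 10000 in Pre-tumorigenic, 139 in Tumorigenic and 49.2 in Activated TGFβR-KO cells. In Pre-tumorigenic cells of the TGFβR-WT sets they were 156 and 209, and in those of TGFβR-CA 162. The highest heat shock level of the groups measured thus fell in the Pre-tumorigenic TGFβR-KO cells, which also had the highest Junb and Fosb. Cells were partitioned after tissue dissociation and sorting, and the part of handling in these levels was not tested.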

How the data were processed

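One deposited table of 13265 genes and 5080 cells was used. Per the labels and the study's methods, the authors aligned reads to mm10 with Cell Ranger 3.1.0, kept cells with 1000 to 5000 detected genes and under 10% mitochondrial reads, normalised with Seurat's SCTransform, integrated on 3000 features and clustered on 10 dimensions at resolution 0.5. What the authors deposited are corrected UMIs, a depth-adjusted count, on a natural log scale after adding 1, so no count model was run. The log was undone, and whole numbers were found to within 1e-06. A level is the sum of a gene's corrected UMIs over a group of cells, per 10000. Genotype was read from cell names beginning R:, WT: or RCA:. No key ties R: to a sample. It was taken as TGFβR-KO because WT: and RCA: name the other samples. The study's methods also give the same number of TGFβR-KO cells. Cluster names were the authors' own. TGFβR-WT cells were pooled and also read as 2 suffix sets.

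A ratio of at least 1.5 counted as a difference. With counts of 3 or fewer in the denominator the interval is given, and zeros are set against a floor of 3 counts. Intervals were exact at 95% and cover counting error only. The ratio step was checked on simulated data. No doublet caller was run. Named genes were all 8 members, the 3 most alike genes of each, up to 6 genes of each other list by the Pre-tumorigenic to Activated ratio, and genes behind counts of 5 or fewer. The members and lists were chosen with earlier results of these data known. Promoter windows came from RefSeq (GRCm38.p6), in which all 8 members were matched by symbol. Analyses used Python 3.11.15, numpy 2.4.6, scipy 1.17.1, pandas 2.3.3 and matplotlib 3.10.9.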

Additional observations from a re-analysis of the deposited data

Results flagged for a closer look

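Fosl2 differed between Pre-tumorigenic and Activated cells in TGFβR-KO but hardly in TGFβR-CA, with log2 ratios of 2.98 and -0.12, a gap of 3.103 on the log2 scale between the genotypes. With 1 sample each, the difference was not tested, and the TGFβR-CA value rests on 11 and 20 UMIs.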

How the results depend on the processing

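Of 90 counts of members recomputed under other settings, 79 were within 1.5 times of the values given, and all those that moved compare genotypes. Members apart from both TGFβR-WT sets in Activated TGFβR-KO cells numbered 1 rather than 2 with ribosomal and mitochondrial genes left out of the total, with values capped at 5 UMIs, or at a ratio of 2, and 4 against the larger set alone. In Pre-tumorigenic TGFβR-KO cells the number was 1 at a ratio of 2 and 6 against the smaller set alone. For TGFβR-CA it became 3 and 1 in Pre-tumorigenic cells, and 2 and 4 in Activated cells, against the larger and the smaller set alone, and 0 in Activated cells without the 5% of cells with most genes. Of 541 ratios 1 turned, counting only those past 1.5 either way in the main setting. It was Fos in Activated TGFβR-CA over TGFβR-WT cells, at 0.451 against the pooled sets and 1.10 against the smaller set alone. Ratios short of 1.5 were not counted as turned even where they crossed 1. Fos in Activated TGFβR-KO over TGFβR-WT cells was such a case. It stood at 0.679 pooled, 0.554 against the larger set and 1.65 against the smaller. Capping at 5 UMIs brought Junb, Pre-tumorigenic over Activated in TGFβR-KO, from 12.1 to 2.48, and Fos from 9.54 to 4.02. A cap at 5 lies below the first quartile of Junb UMIs in Pre-tumorigenic TGFβR-KO cells, 14, and above the third in Activated cells, 4. It thus lowered the values of most Pre-tumorigenic cells and of fewer Activated ones. For Fos the third quartiles were 12 and 2. A total without heat shock genes was tried after seeing the data. No paired analysis was possible because cells from TGFβR-WT mice carry no sample name and the other genotypes have 1 sample each; for the same reason no sample could be left out in turn. Small counts in few cells limit Fosl2 and Batf in Pre-tumorigenic cells outside TGFβR-KO. Small counts also limit Fosl2 in Activated cells there, and Atf3 throughout.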
